A study of Nicotiana tabacum with 6 samples.

Results

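MYB and SANT domain proteins were described in young tobacco leaves (Nicotiana tabacum, variety NC82) through the transcript abundance of 151 gene models. They were chosen by their description, which had to name a SANT/Myb or Myb domain and neither a response regulator nor DnaJ, and by a mean abundance of at least 1 over 6 RNA-seq libraries. Of 69500 models in all, 537 matched the description, and the 151 members are 28.1% of these. Of the 386 others, 135 were listed at 0 in all 6 libraries and 46 reached 1 in some library. The minimum uses the mean of all libraries and not the difference between groups. A model high in a single group can pass it through that group: 139 members had a mean of at least 1 in both groups, 9 only in overexpressors and 3 only in wild type.

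The study compared NC82 plants overexpressing NtPhyA, which is named for the light receptor phytochrome A, with wild-type NC82 plants. Each group has 3 libraries, all from young leaves of seedlings that spent 24 h at 4 °C, so cold is common to both groups and its effect cannot be measured here. The sources used here give neither the promoter of the transgene nor the number of transgenic lines, and do not say whether plants were pooled. Nothing says that the replicates are separate plants, so the p-values reflect the variation among these 6 libraries alone, and that variation may be technical.

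The MYB domain is a short helix-turn-helix fold that binds DNA, and it is often present in several repeats. Plants use MYB proteins as transcription factors for phenylpropanoid and flavonoid synthesis, epidermal cell fate, the circadian clock and stress responses. The related SANT domain occurs in subunits of chromatin complexes, where it is known to contact histone tails. In Arabidopsis, MYB factors of the flavonoid pathway act together with basic helix-loop-helix partners. Members are named by model identifier, since the files pair no gene symbol with any model, and 0 entries of the RefSeq gene table for tobacco matched an identifier. The role of a single member beyond its domains is therefore not known here.

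The authors' values are a normalized abundance per model and library, whose unit (TPM or FPKM) is not stated. The 6 libraries summed to 440137 to 568208, with wild-type replicate 3 highest, and between 31369 and 33469 models were above 0. Read totals are not given, and the step that a single read makes in low values put the deepest library, overexpression replicate 2, at 1.33 times the shallowest, wild-type replicate 3. Leaf transcripts were present in every library, with summed abundances of 1678 to 9148 for chlorophyll a/b-binding proteins and 6560 to 29354 for the small subunit of Rubisco. Phytochrome models, by their A/B/C/D/E entry, summed to 2.83, 1.70 and 1.33 in wild type replicates 1, 2 and 3. In those of the overexpressors they summed to 2.86, 1.86 and 1.15. The groups overlapped and no clear rise was seen in overexpressors, so these sums do not check the label of the transgenic plants. In bulk leaf, fewer cells of a type and less RNA per cell cannot be told apart. Tobacco carries near-identical gene copies from its parental genomes, and how the counting divided reads between them is uncertain.

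The members fell into 6 domain classes by the entries in their descriptions. The largest, with 67 members of 300 matching models, has Myb domain entries and none of the entries that define the other classes. The descriptions do not count repeats, so proteins with several MYB repeats cannot be told from those with a single repeat. The SHAQKYF class has 44 members of 109. It is defined by the entry "Myb domain, plants", a signature named after a short amino acid motif of single-repeat proteins, which in Arabidopsis include the clock factors CCA1 and LHY. The MYB-CC class, with 13 of 29, joins this domain to a coiled coil, is kept apart from the SHAQKYF class, and includes the Arabidopsis regulator of phosphate starvation, PHR1. A class of 4 members out of 12 combines the MYB domain with a linker histone H1/H5 domain, as do telomere repeat binding proteins of plants. The chromatin class has 5 of 17, of which 3 carry a SWIRM domain, as do SWI3 subunits of SWI/SNF remodelling complexes, and 2 a bromodomain, which reads acetylated histones. The remaining 18 of 70 have SANT, SANT/Myb or Myb-like entries only, or a rare partner such as the trihelix GT3 entry of Nitab4.5_0000581g0190.

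Abundance was concentrated in a few models. Mean values ran from just over 1 to 149 with a median of 3.73, and the 10 most abundant members held 46.5% of the summed abundance of all 151. The 5 highest were all of the SHAQKYF class. Nitab4.5_0001047g0070 was at 124.47, 104.98 and 247.07 in replicates 1, 2 and 3 of wild type, and at 99.73, 158.20 and 160.14 in overexpression replicates 1, 2 and 3. Nitab4.5_0001590g0030 was at 101.57, 140.25 and 214.47 in wild type and 69.97, 137.02 and 175.30 in overexpressors. Both were highest in wild-type replicate 3 and lowest in overexpression replicate 1, and the groups overlapped. Nitab4.5_0001786g0040 was at 98.06, 84.64 and 163.98 in wild type and 94.35, 106.08 and 103.21 in overexpressors. Nitab4.5_0008659g0010, whose description also holds a leucine-rich repeat, was at 98.02, 99.06 and 143.45 in wild type and 49.46, 111.22 and 78.23 in overexpressors. Nitab4.5_0007450g0010 was at 64.63, 84.72 and 120.70 in wild type and 47.69, 89.13 and 115.86 in overexpressors. In each of these 5 the highest value came from wild-type replicate 3, while overexpression replicate 2 lay inside the wild-type range. Their differences in log2(value + 1), overexpression minus wild type, ran from -0.56 to -0.12 with standard errors of 0.31 to 0.44.

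**Figure D1:**
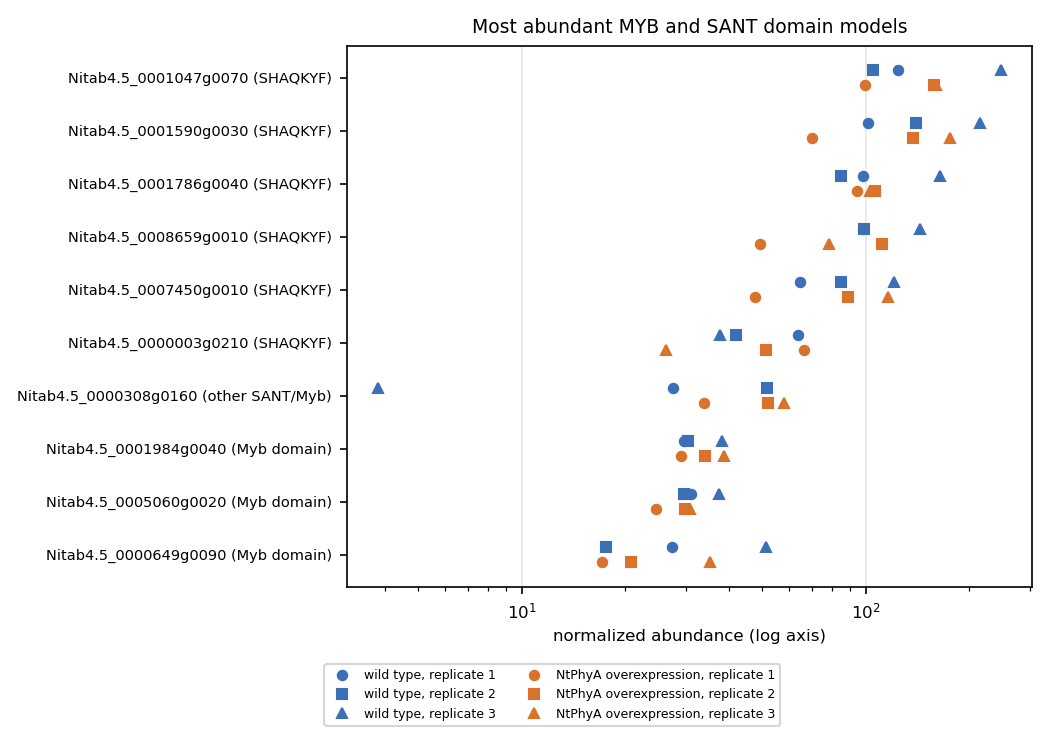
Normalized abundance (log axis) of the 10 most abundant members in each of the 6 libraries, with the domain class in brackets. Wild-type replicate 3 is the highest library in 7 of the 10, and it is far below the others in Nitab4.5_0000308g0160, at 3.82.

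The sixth most abundant member went the other way between libraries. Nitab4.5_0000003g0210, again of the SHAQKYF class, was at 63.41, 41.99 and 37.79 in wild type and 66.04, 51.35 and 26.27 in overexpressors, so it was highest in replicate 1 and lowest in replicate 3 of both groups. Nitab4.5_0000308g0160, with Myb-like and SANT/Myb entries, was at 27.55, 51.56 and 3.82 in wild type and 33.86, 52.02 and 58.00 in overexpressors. Its log2 difference of 1.30 ± 0.82 (SE, n = 3 per group) became 0.30 when wild-type replicate 3 was left out. The remaining 3 of the top 10 were of the Myb domain class. Nitab4.5_0001984g0040 varied little, at 29.61, 30.47 and 38.35 in wild type and 29.06, 34.17 and 38.86 in overexpressors. Nitab4.5_0005060g0020 was at 30.97, 29.59 and 37.50 in wild type and 24.55, 29.83 and 30.95 in overexpressors. Nitab4.5_0000649g0090 was at 27.35, 17.57 and 51.24 in wild type and 17.10, 20.75 and 35.29 in overexpressors, with replicate 3 highest in both groups.

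Summed over all members, abundance was 1545, 1540 and 2098 in replicates 1, 2 and 3 of wild type and 1369, 1597 and 1641 in those of the overexpressors. The groups overlapped, and wild-type replicate 3 stood above the other libraries. As a share of each library's total these sums were 0.336%, 0.342% and 0.369% in wild type and 0.288%, 0.354% and 0.373% in overexpressors, so overexpression replicate 1 had the lowest share and overexpression replicate 3 the highest. The SHAQKYF class carried more than any other, with wild-type libraries at 946 ± 189 and overexpressors at 794 ± 85 (SD, n = 3 each). The Myb domain class, with more members, summed to 468 ± 148 and 416 ± 80. The MYB-CC class summed to 125 ± 13 and 111 ± 13, and the class of other SANT/Myb entries to 127 ± 34 and 155 ± 25. The 4 linker histone members summed to 36.4 ± 5.8 and 34.3 ± 2.8, and the 5 chromatin members to 25.8 ± 2.3 and 24.8 ± 6.0. In all 6 classes the libraries of both groups overlapped. Without wild-type replicate 3 the difference of the summed means (overexpression minus wild type) went from -51.7 to 33.7 in the Myb domain class and from -2.05 to 1.24 in the linker histone class. The chromatin class went from -1.08 to 2.34 without overexpression replicate 3 and to 0.17 without wild-type replicate 2.

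**Figure D2:**
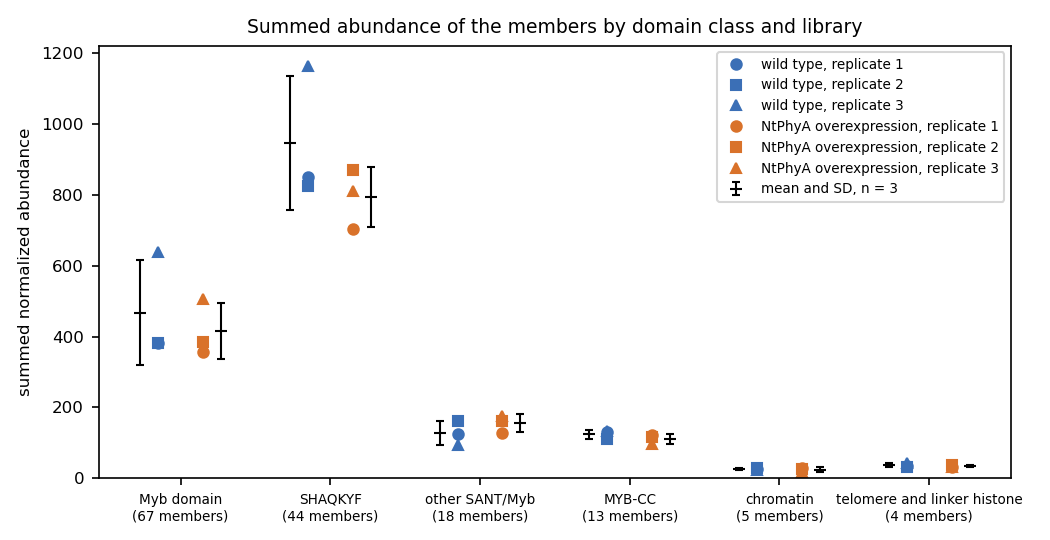
Summed normalized abundance of the members of each domain class, 1 point per library, with the mean and SD of each group (n = 3) drawn beside the points. The groups overlap in every class. Wild-type replicate 3 is the highest library in the Myb domain (638), SHAQKYF (1164), MYB-CC (134) and linker histone (42.9) classes. It is the lowest in the class of other SANT/Myb entries (94.6) and neither in the chromatin class (23.8). The sums are not scaled by the library total, which was also highest in wild-type replicate 3 (568208).

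No MYB or SANT member passed the test between the plant materials. With limma on log2(value + 1) over the 17962 models that reached a mean of 1, 0 of 151 members had a Benjamini-Hochberg adjusted p below 0.05, against 0.00557% of all tested models, which is 1 model. The smallest limma adjusted p of any member was 0.999. At an unadjusted limma p below 0.05 there were 5 members, 3.31%, of which 2 were higher and 3 lower in overexpressors, where all tested models gave 2.82%, with 1.47% higher and 1.35% lower. Of these 5, 3 had a mean below 1 in either wild type or overexpressors and passed the minimum only through the group where they were high. The values of the groups did not overlap in 12 members, 7.95%, with 6 in each direction (3.97% each), against 7.87% of all tested models, 4.01% higher and 3.86% lower. These shares lie near the background. Log2 differences beyond 1 were seen in 7 members, 4.64%, and in 3.77% of all tested models.

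The differences of the members centred close to 0. On the log2(value + 1) scale, which understates the change of models with low values, the median difference was -0.06 (overexpression minus wild type), and the quartiles were -0.25 and 0.14. All tested models had a median of -0.01. Of the members, 67 were higher and 84 lower (44.4% and 55.6%), against 48.3% and 51.7% of all tested models. The spread within groups was larger than the difference in 120 members (79.5%), compared with 75.5% of all tested models. The median SD within groups was 0.43 log2 units in members and 0.43 in all tested models. The 95% confidence interval of the difference lay within 1 log2 unit of 0 in 59 members (39.1%), against 40.7% of all tested models, so for the other members a change of that size was not excluded at this precision.

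**Figure D3:**
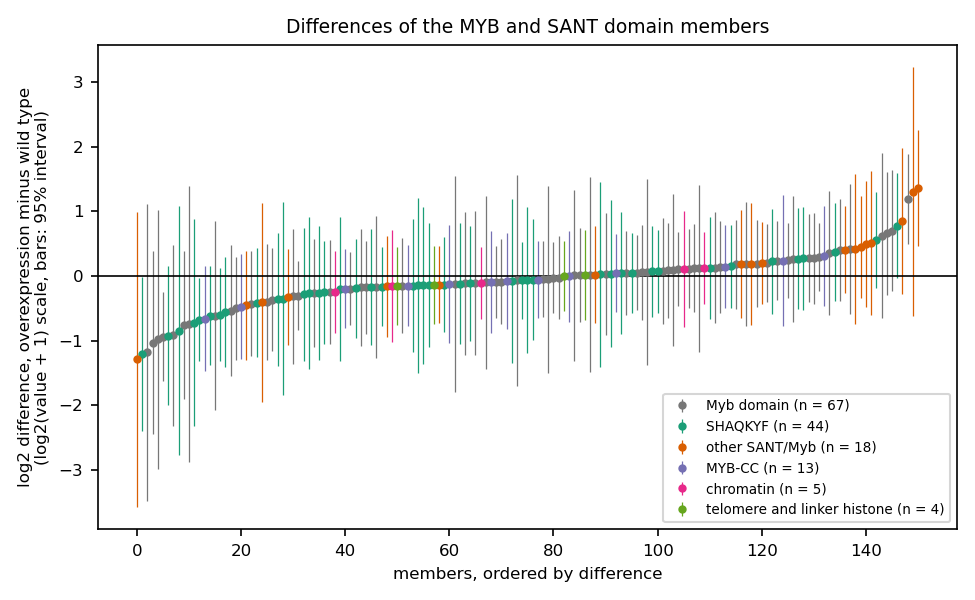
Log2 difference (overexpression minus wild type, log2(value + 1) scale) of all 151 members in ascending order, with 95% intervals from limma and colours for the domain classes. The differences run from -1.29 to 1.36 and most intervals include 0.

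The domain classes differed in the balance of higher and lower members, which was not tested. In the SHAQKYF class, 30 of 44 members were lower in overexpressors, with a median log2 difference of -0.14. That balance rested on a single library, since 22 were higher and 22 lower, with a median of -0.004, without overexpression replicate 3. The Myb domain class had 34 higher and 33 lower, with a median of 0.01, which was -0.02 under median-ratio scaling and -0.04 under quantile normalization. In the MYB-CC class 9 of 13 were lower, with a median of -0.08, which was 0.02 without overexpression replicate 3 and 0.002 under quantile normalization. Of the 18 members with other SANT/Myb entries 12 were higher, with a median of 0.19, which was 0.06 with wild-type replicate 3 left out. No chromatin or linker histone member had a log2 difference beyond 0.25 in size, but these classes hold only 5 and 4 members. Their median absolute differences were 0.12 and 0.08, and that of the MYB-CC class was close, at 0.14.

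The 4 linker histone members ranged from 2.01 to 17.23 in single libraries. The most abundant, Nitab4.5_0003606g0040, was at 13.18, 13.53 and 17.02 in wild type and 15.33, 14.16 and 13.79 in overexpressors, with a log2 difference of -0.01 ± 0.23 (SE) and a 95% interval from -0.55 to 0.53. Among the SWIRM members, Nitab4.5_0002530g0070 was at 8.20, 8.05 and 9.90 in wild type and 7.94, 8.78 and 5.23 in overexpressors. Nitab4.5_0000021g1050, also a SWIRM protein, was at 4.79, 5.01 and 5.37 in wild type and 6.56, 5.42 and 4.90 in overexpressors, and had one of the smallest spreads of all members with a mean of at least 5. Both overlapped between the groups. The most abundant MYB-CC member, Nitab4.5_0006133g0010, was at 30.85, 19.32 and 26.85 in wild type and 31.75, 24.91 and 17.13 in overexpressors. The class reached down to a mean of 1.26 in Nitab4.5_0001416g0010, and a single MYB-CC member had a difference beyond 0.5 log2 units.

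That member, Nitab4.5_0000147g0130, was at 7.20, 17.23 and 8.30 in wild type and 6.63, 5.87 and 5.77 in overexpressors. The groups did not overlap. Its log2 difference of -0.66 ± 0.35 (SE) shrank to -0.30 when wild-type replicate 2, the library at 17.23, was left out.

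The other members with lower values and no overlap belonged to the SHAQKYF and Myb domain classes, and none of them passed the adjusted threshold. Nitab4.5_0000010g0120, a SHAQKYF model with a SANT entry, was at 31.07, 25.45 and 37.19 in wild type and 19.72, 23.12 and 14.86 in overexpressors. Its log2 difference was -0.68 ± 0.27 (SE, n = 3 per group; limma unadjusted p = 0.0417, adjusted p = 0.999), and the difference without any single library was between -0.81 and -0.51. Nitab4.5_0008039g0010, with Myb domain entries, was at 4.40, 3.75 and 6.27 in wild type and 1.68, 2.78 and 1.63 in overexpressors. Its log2 difference was -0.94 ± 0.29 (SE; limma unadjusted p = 0.0145, adjusted p = 0.999). In the latter the difference lay between -1.11 and -0.76 without any single library. In both models every overexpression library was below every wild-type library.

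In a further member a single library set most of the gap. Nitab4.5_0006893g0010, of the Myb domain class, was at 3.24, 3.68 and 13.70 in wild type and 2.59, 3.18 and 3.04 in overexpressors, and its log2 difference of -0.76 shrank to -0.18 when wild-type replicate 3 was left out. Nitab4.5_0010633g0050, of the SHAQKYF class, was at 4.29, 4.92 and 8.17 in wild type and 3.85, 2.53 and 3.87 in overexpressors. Nitab4.5_0008900g0010, which joins the Myb domain to a ubiquitin-like fold, was at 15.15, 15.87 and 17.04 in wild type and 14.63, 12.57 and 11.35 in overexpressors. It had one of the smallest spreads among members with a mean of at least 5, and its log2 difference was -0.30 ± 0.23 (SE).

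Of the 6 members with higher values and no overlap, 5 had a mean abundance under 2. Nitab4.5_0000906g0090, with Myb domain entries, was at 1.03, 1.03 and 0.35 in wild type and 2.80, 3.89 and 2.54 in overexpressors. Its log2 difference was 1.19 ± 0.30 (SE; limma unadjusted p = 0.00483, adjusted p = 0.999), the smallest unadjusted p of any member. Nitab4.5_0002241g0010, with Myb-like entries, was at 0.52 and 1.20 in wild-type replicates 1 and 2, listed at 0 in replicate 3, and at 3.55, 3.34 and 1.86 in overexpressors. Its log2 difference was 1.36 ± 0.38 (SE; limma unadjusted p = 0.00857, adjusted p = 0.999). Both had a mean below 1 in wild type and entered the members through the overexpression libraries, as did Nitab4.5_0002100g0160.

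Nitab4.5_0002100g0160, of the SHAQKYF class, was at 0.42, 0.50 and 0.44 in wild type and 0.71, 2.25 and 1.79 in overexpressors. Nitab4.5_0000140g0040 was at 1.60, 1.61 and 0.79 in wild type and 2.05, 1.63 and 2.55 in overexpressors, so the nearest values of the groups, 1.61 and 1.63, almost met. Nitab4.5_0000205g0020 was at 1.38, 1.37 and 1.35 in wild type and 1.56, 1.86 and 1.99 in overexpressors. The more abundant Nitab4.5_0005913g0020 was at 7.65, 8.18 and 8.0 in wild type and 9.14, 9.81 and 11.12 in overexpressors, with a log2 difference of 0.30 ± 0.23 (SE) and a 95% interval from -0.23 to 0.83. It had the smallest spread within groups of all members with a mean of at least 5.

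**Figure D4:**
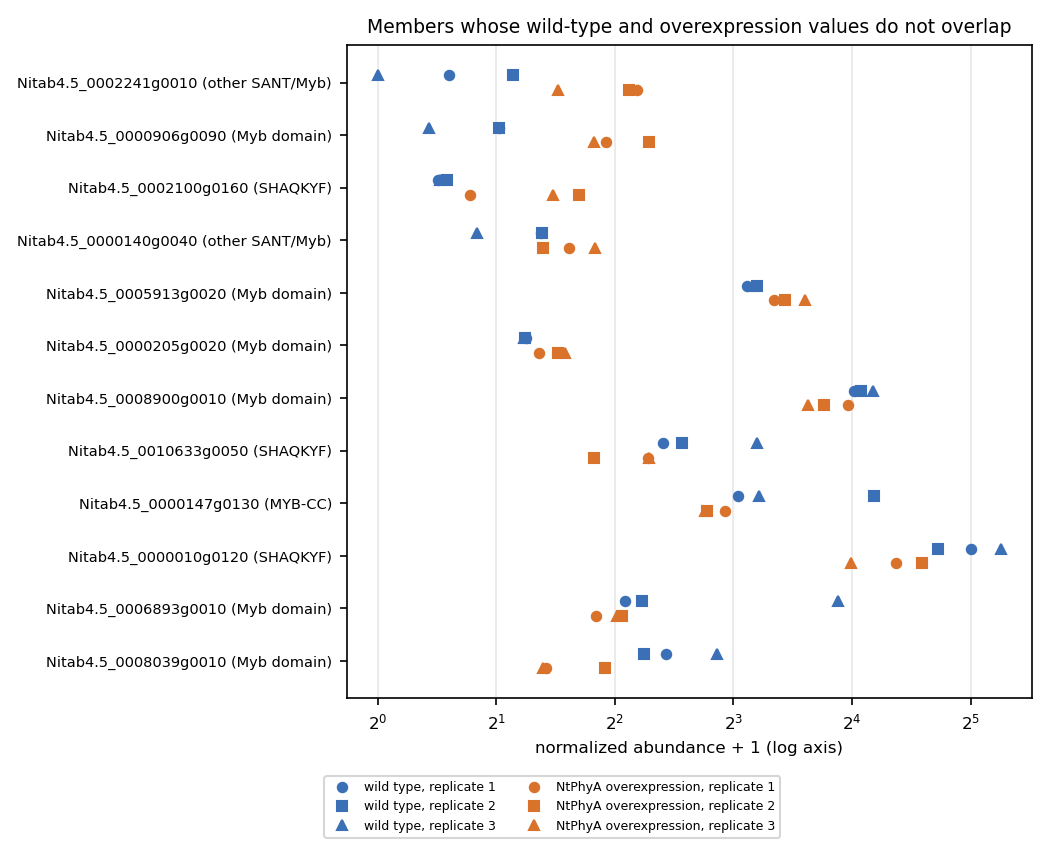
Normalized abundance plus 1 (log axis) in each library for the 12 members whose groups do not overlap, ordered by log2 difference. The 6 at the top are higher and the 6 at the bottom lower in overexpressors, and 8 of the 12 have a mean abundance under 5.

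The fifth member with an unadjusted limma p below 0.05 was Nitab4.5_0000672g0080 of the SHAQKYF class, named after its values were seen. It was at 5.95, 2.85 and 1.42 in wild type and at 1.53 and 1.10 in overexpression replicates 1 and 2, and was listed at 0 in replicate 3. The groups overlapped at wild-type replicate 3. Its log2 difference was -1.20 ± 0.51 (SE; unadjusted p = 0.0482, limma adjusted p = 0.999). Its mean was 3.41 in wild type and 0.877 in overexpressors, so it passed the minimum only through the wild-type libraries. In all, 9 members were listed at 0 in some library. The most abundant of them was Nitab4.5_0004531g0020, with a SANT domain entry, at 14.61, 15.02 and 9.68 in wild type and 10.69, 14.63 and 0 in overexpressors. Its log2 difference of -1.29 was -0.04 without overexpression replicate 3. Such a 0 may be a failed estimate, which was not tested.

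Some members differed widely between libraries of the same group. Replicate 3 was above replicate 1 by over 1 log2 unit in both plant materials in 15 members (9.93%), against 5.94% of all tested models. It was below by as much in 7 members (4.64%), against 6.59%. With a pseudocount of 0.1 the latter were 12 members (7.95%), against 10.2% of all tested models. The groups went beyond 1 log2 unit in opposite directions in 0 members, against 0.952% of all tested models. The Myb domain class held 11 of the 15 and 3 of the 7, or 16.4% and 4.48% of its members. The SHAQKYF class held 3 and 4, or 6.82% and 9.09%. These class shares were not tested, and the chromatin, linker histone and MYB-CC classes are too small for a share. The comparison uses the replicate numbers of the labels and was added after the values were seen.

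Nitab4.5_0001334g0020, of the Myb domain class, had the largest spread of all members with a mean of at least 5. It was at 4.28, 17.61 and 45.69 in wild type and 2.24, 3.87 and 23.90 in overexpressors. Nitab4.5_0004662g0010 was at 3.84, 20.84 and 22.71 in wild type and 3.11, 3.44 and 28.02 in overexpressors. Both were lowest in replicate 1 and highest in replicate 3 of each group, while replicate 2 was near replicate 3 or midway in wild type and near replicate 1 in overexpressors.

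The following members were named after their values were seen. Nitab4.5_0002906g0080 was at 4.01, 8.17 and 15.37 in wild type and 2.08, 4.27 and 12 in overexpressors. Nitab4.5_0000044g0310 was at 2.63, 9.34 and 15.34 in wild type and 4.26, 3.73 and 18.04 in overexpressors. Nitab4.5_0000121g0260 was at 4.11, 3.50 and 13.57 in wild type and 3.92, 5.78 and 11.95 in overexpressors. All 3 are of the Myb domain class, and in each the replicate 3 libraries lay above all 4 others. Nitab4.5_0000103g0300 and Nitab4.5_0000103g0310, whose consecutive numbers on the same identifier stem make them a neighbouring pair, both belonged to the 15. The former was at 0.19, 0.70 and 1.47 in wild type and 0.41, 1.4 and 4.39 in overexpressors, and the latter at 0.37, 2.36 and 1.89 and at 0.21, 0.45 and 5.59.

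In the other direction, Nitab4.5_0003820g0040 of the SHAQKYF class was at 35.51, 13.46 and 9.63 in wild type and 27.64, 14.12 and 10.17 in overexpressors. Nitab4.5_0002875g0030, of the same class, was at 29.01, 15.45 and 13.51 in wild type and 23.85, 13.12 and 8.63 in overexpressors. Both were highest in replicate 1 of each group, above all 4 libraries numbered 2 or 3. Nitab4.5_0006560g0010, again a SHAQKYF model, was at 3.80, 0.90 and 0.49 in wild type and 4.15, 0.69 and 0.64 in overexpressors. Nitab4.5_0000568g0090, of the Myb domain class, was at 4.09, 1.64 and 0.50 in wild type and 5.35, 1.16 and 0.54 in overexpressors.

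**Figure D5:**
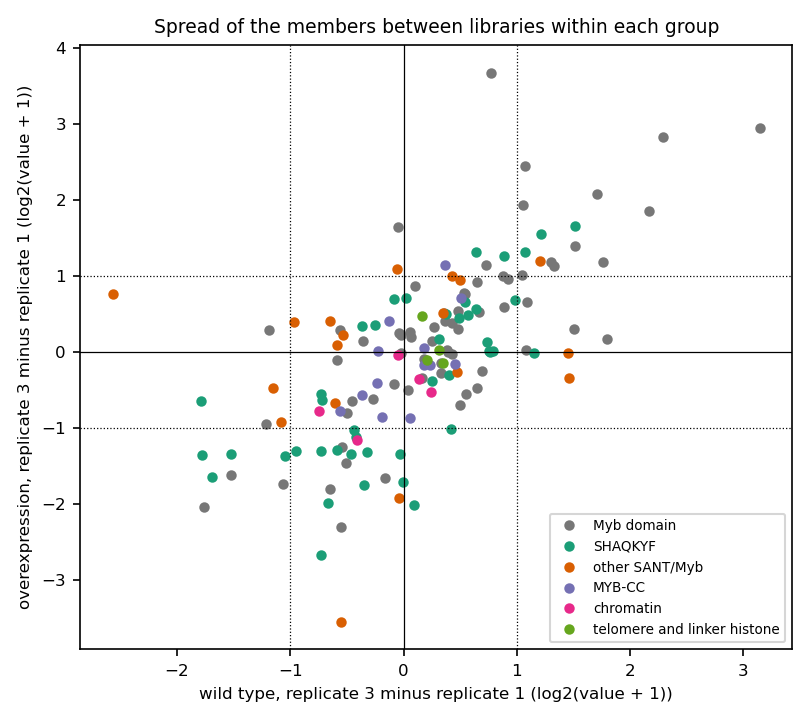
Difference between replicate 3 and replicate 1 on the log2(value + 1) scale for each member, in wild type (horizontal axis) and in overexpressors (vertical axis), coloured by domain class, with dotted lines at 1 log2 unit. The upper right corner beyond the lines holds 15 members and the lower left corner 7, and the other corners hold none.

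Leaf transcripts also differed between libraries of the same group, and fell from replicate 1 to replicate 3 in both groups. That is the direction of the 7 members that fell and opposite to that of the 15 that rose. Chlorophyll a/b-binding proteins summed to 7099, 3588 and 1678 in replicates 1, 2 and 3 of wild type, and in the overexpressors to 9148, 5094 and 1969. The small subunit of Rubisco summed to 22073, 12152 and 6560 in wild type and to 29354, 18662 and 11895 in overexpressors. Core histones, which mark dividing cells, summed to 2524, 2239 and 2947 and to 4068, 2763 and 2669. Their part in the spread of the members was not tested. The labels do not say what the replicate numbers stand for. The members' deviations from the group means correlated across members at 0.66 for the libraries numbered 1, -0.05 for those numbered 2 and 0.49 for those numbered 3, given as a description over 151 models that are not independent.

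At the abundance minimum, the members just inside were Nitab4.5_0002100g0160, with a mean of 1.02, Nitab4.5_0002465g0020, with 1.06, and Nitab4.5_0002714g0010, with 1.07. Those just outside were Nitab4.5_0003114g0010, Nitab4.5_0005115g0010 and Nitab4.5_0000225g0010, with means of 0.98, 0.958 and 0.955. Of the members, 41 had a mean under 2, 50 from 2 to 5, 16 from 5 to 10 and 44 of at least 10.

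In the lists of helix-loop-helix, flavonoid, phenylpropanoid and response regulator entries, 0 models passed the test (limma, adjusted p below 0.05). At an unadjusted limma p below 0.05 were 1 basic helix-loop-helix model (1.3% of those tested) and 0 models with a response regulator entry. So were 1 flavonoid enzyme (8.33%) and 1 phenylpropanoid enzyme (12.5%), against 2.82% of all tested models. The search for helix-loop-helix entries listed 331 models, of which 77 were tested. By its description 1 of these, Nitab4.5_0003590g0030, is a ribonuclease with a helix-loop-helix cap, named after its values were seen. The other 76 had 38 higher and 38 lower values, with a median log2 difference of 0.002. The 2 most abundant were Nitab4.5_0000287g0100, at 32.88, 57.77 and 54.41 in wild type and 34.56, 40.57 and 55.44 in overexpressors, and Nitab4.5_0006769g0080, at 24.68, 30.85 and 52.81 and at 21.25, 26.86 and 26.72. Both overlapped between groups. The search for flavonoid and anthocyanin enzymes listed 28 models, of which 12 were tested. By their descriptions all 12 are chalcone isomerases or chalcone/stilbene synthases, so other enzymes of the pathway are not covered. Of these, 10 had higher and 2 lower values (83.3% and 16.7%, against 48.3% and 51.7% of all tested models). Their median was 0.33. Without overexpression replicate 3 the split was 8 and 4, with a median of 0.57. A chalcone isomerase, Nitab4.5_0000027g0470, was at 29.44, 19.06 and 27.35 in wild type and 48.74, 35.60 and 16.88 in overexpressors. A chalcone synthase family model, Nitab4.5_0001066g0070, whose enzyme family starts the flavonoid pathway, was at 19.47, 10.34 and 11.65 in wild type and 37.29, 18.86 and 15.63 in overexpressors. In both the overexpression group was highest in replicate 1 and overlapped wild type.

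The search for phenylpropanoid and lignin enzymes listed 38 models, of which 8 were tested. By their descriptions all 8 are phenylalanine ammonia-lyases or of the caffeate O-methyltransferase family, so other enzymes of the pathway are not covered. Of these, 1 had higher and 7 lower values (12.5% and 87.5%, against 48.3% and 51.7% of all tested models), with a median of -0.24. The median depended on single libraries, at -0.13 with wild-type replicate 2 left out and at -0.63 with overexpression replicate 3 left out, each with 2 higher and 6 lower values. It was -0.61 without wild-type replicate 1, with 3 higher and 5 lower, and -0.44 without wild-type replicate 3, with 1 and 7. Phenylalanine ammonia-lyase, which opens the phenylpropanoid pathway, was at 107.83, 49.75 and 10.64 in wild type and 92.38, 58.83 and 30.27 in overexpressors in Nitab4.5_0000101g0270. A methyltransferase of the caffeate O-methyltransferase family, Nitab4.5_0007775g0010, was at 26.89, 104.50 and 78.25 in wild type and 21.25, 69.79 and 127.77 in overexpressors. The former was highest and the latter lowest in replicate 1 of both groups. Response regulators of the B type carry a Myb-like domain and were left out of the members by their description. Of 23 models with both entries 6 were tested, 4 with higher and 2 with lower values and 0 called. The entry for a response regulator receiver domain was found in 91 models, of which 23 were tested. Of these, 7 are histidine kinases, ethylene sensors among them, that carry the receiver domain, and all 7 had higher values, with log2 differences of 0.17 to 0.83. The 16 without a histidine kinase entry had 10 higher and 6 lower values, with a median of 0.15. This division was made after the values were seen. Together, 17 of the 23 (73.9%) had higher values, against 48.3% of all tested models. The 2 most abundant of the 23 carry a CCT domain. Nitab4.5_0010809g0020 was at 35.38, 24.76 and 14.92 in wild type and 41.42, 32.00 and 45.28 in overexpressors, and Nitab4.5_0002053g0060 was at 28.10, 25.72 and 14.07 and at 34.49, 23.57 and 32.44.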

How the data were processed

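Per the labels' protocols, total RNA from young leaves was made into TruSeq libraries and sequenced in pairs. The tools named, per the submitters' processing notes, are RSEM, StringTie and HISAT2, and their versions, settings and genome build were not given. What the authors deposited is a non-negative signal, the normalized abundance of each model in each library, in 1 table per plant material. Whether both tables were normalized together is not stated, so levels set across them assume comparable libraries. The authors' group means were not used, and no model coordinates or sequences were given.

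Groups and replicate numbers came from sample titles. The edgeR test planned for counts did not apply. Values were transformed to log2(value + 1), and models with a mean of at least 1 were fitted with limma 3.58.1 (R 4.3.3; trend and robust empirical Bayes) on group alone, with Benjamini-Hochberg adjustment over all 17962 models and a threshold of 0.05. On simulated data with independent noise per library, the fit was checked only for returning the planted differences. Variation shared by replicate number was not simulated, so the check does not bear on the calls in these data. Domain classes and other lists are text patterns on descriptions, and classes under 3 members joined the last class.

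The members and lists were chosen with earlier results of these data known. The rule for named members took called members, the 10 most abundant, up to 8 without overlap in each direction by smallest p, the most abundant of each class, 3 on either side of the minimum and 3 each with the largest and smallest spread at a mean of at least 5. In the other lists it took the 2 most abundant. Others are marked as named after their values were seen.

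Alternatives were a pseudocount of 0.1, other filters, replicate number as a block, median-ratio and quantile scaling, limma without its options and leaving out each library. Leaving out both libraries numbered 3 was added after seeing the data.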

Additional observations from a re-analysis of the deposited data

How the results depend on the processing

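In every setting run, 0 members were called. The 1 model called among all became 0 with a pseudocount of 0.1, with no filter, with replicate number as a block, under median-ratio scaling, under quantile normalization, without both libraries numbered 3, and without any single library (0 to 0). Members without overlap, 12 in the main analysis, numbered 15 to 32 without a single library (9.93% to 21.2%, against 13.6% to 20.8% of all tested models) and 46 without both libraries numbered 3 (30.5%, against 30.3%), since fewer libraries make separation easier. The count of members higher in overexpressors was 67 to 75 and the median log2 difference -0.07 to -0.005 without a single library, and the median was 0.03 without both libraries numbered 3.

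The fit with replicate number as a block gave 11 members with an unadjusted limma p below 0.05 in place of 5, and 0 called. These are 7.28% of members, against 6.59% of all tested models under the block and 2.82% of all tested models in the main fit. The p-values and standard errors given elsewhere come from the main fit on group alone. Any variation shared by libraries of the same number stays in its residual. The numbers do not pair the libraries by the rule used, since over all tested models the deviations correlated at 0.56, -0.11 and 0.42 for libraries numbered 1, 2 and 3, and the second library of each group did not correlate best with its own number.

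Of 545 comparisons of 39 named models with an alternative, 506 kept their direction without a call and 39 changed sign, all of them uncalled. Under quantile normalization the log2 difference became 0.044 in Nitab4.5_0000003g0210, 0.059 in Nitab4.5_0001047g0070, 0.046 in Nitab4.5_0001786g0040, 0.054 in Nitab4.5_0003606g0040, 0.012 in Nitab4.5_0006133g0010, 0.011 in Nitab4.5_0007450g0010 and 0.046 in Nitab4.5_0007775g0010. Without both libraries numbered 3 it became 0.17 in Nitab4.5_0000003g0210, 0.14 in Nitab4.5_0001047g0070, 0.13 in Nitab4.5_0001786g0040, 0.035 in Nitab4.5_0002530g0070, -0.014 in Nitab4.5_0002714g0010, 0.13 in Nitab4.5_0003606g0040 and 0.20 in Nitab4.5_0006133g0010. Leaving out a single library gave differences of -0.33 to 0.32 in Nitab4.5_0000003g0210, -0.67 to 0.081 in Nitab4.5_0000649g0090, -0.36 to 0.25 in Nitab4.5_0001047g0070, -0.56 to 0.094 in Nitab4.5_0001590g0030, -0.32 to 0.15 in Nitab4.5_0001786g0040, -0.047 to 0.17 in Nitab4.5_0001984g0040, -0.11 to 0.32 in Nitab4.5_0002714g0010, -0.070 to 0.10 in Nitab4.5_0003606g0040, -0.27 to 0.15 in Nitab4.5_0006133g0010, -0.41 to 0.22 in Nitab4.5_0007450g0010, -0.016 to 0.72 in Nitab4.5_0000027g0470, -0.41 to 1.20 in Nitab4.5_0000101g0270, -0.39 to 0.014 in Nitab4.5_0000287g0100 and -0.64 to 0.63 in Nitab4.5_0007775g0010. The cause was not tested.

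With 3 libraries per group and a median standard error of 0.35 log2 units among members, small differences were not detectable. Differences beyond 1 log2 unit also went uncalled, such as 1.19 in Nitab4.5_0000906g0090 and 1.36 in Nitab4.5_0002241g0010. Among all tested models, 677 (3.77%) had a difference of that size and 1 model was called. The lack of called members therefore does not show that only small changes were missed. Read depth is unknown, so no counting interval is given.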
